A study of Mus musculus with 20 samples.

Results

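Nuclear receptors are transcription factors that bind small lipophilic molecules, among them fatty acids, oxysterols, bile acids, drugs and hormones, and switch target genes in response. The genes described here are 35 members of this superfamily, without the clock receptors and Nr0b2. They were chosen by symbol, and each is represented by the probe set with the highest mean over all arrays among those annotated with that symbol alone. Of the 35 listed genes 34 had such a probe set, out of 18193 genes in all. Nr1h2, which encodes LXR-beta, had no such probe set and was not measured. Together the 34 genes had 90 probe sets out of 45037.

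RNA came from the livers of males of the inbred mouse strain C57BL/6J. All were bought at 3 weeks of age and first ate the low-fat diet for acclimation. From then on 10 mice kept a diet with 10% of its energy from fat, and 10 mice received a diet with 45%, for 4 weeks in each case. All were killed after 16 h without food, at 8 weeks of age, so both diets were measured in fasted animals, and each mouse had its own array. The high-fat groups that also received a maple syrup extract are not analysed here.

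Most of these receptors work as pairs with a retinoid X receptor (RXR), while the steroid receptors pair with themselves and some orphan receptors bind DNA alone. In the liver PPAR-alpha drives fatty acid oxidation in fasting, the liver X receptors (LXR) respond to oxysterols, and the farnesoid X receptor (FXR) responds to bile acids. The xenobiotic sensors PXR and CAR induce drug-metabolising cytochromes, and HNF4-alpha keeps up hepatocyte identity. These proteins are governed largely by ligands and coregulators, so a receptor's transcript level is only part of its activity. In whole liver, fewer cells of a type and less RNA per cell cannot be told apart.

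The DNA word that RXR partners and many orphan receptors share is the hexamer AGGTCA, read on either strand, and pairs of it in direct repeat form the classical response elements. Among the receptors' own promoters, 9 of 52 annotated starts (17.3%), belonging to 8 of the 32 genes with an entry, held it within 250 bases upstream, against 14.0% of all 32851 such stretches (15.8% of genes) in the RefSeq promoter table of mouse build GRCm38.p6. The direct repeats AGGTCANAGGTCA and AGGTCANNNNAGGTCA, which contain the hexamer, were in 0 of the 52, and in 0.0335% and 0.0152% of all stretches. The following upstream stretches, given 5′ to 3′ on the gene's strand with the hexamer or its complement in capitals, show it in front of the common partner Rxra, the bile acid sensor gene Nr1h4, the thyroid hormone receptor gene Thrb and the orphan receptor gene Nr5a2. They also show it in front of 3 target and transporter genes whose scores fell on the high-fat diet. A match describes the letters only, not a bound site.
Rxra, chr2:27709226-27709267, plus strand, hexamer starting 48 bases before the start site: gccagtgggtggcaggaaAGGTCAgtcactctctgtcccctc
Nr1h4, chr10:89506849-89506890, minus strand, 214 bases before: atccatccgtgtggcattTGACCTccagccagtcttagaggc
Thrb, chr14:17660758-17660799, plus strand, 184 bases before: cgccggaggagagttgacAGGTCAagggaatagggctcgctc
Nr5a2, chr1:136960489-136960530, minus strand, 64 bases before: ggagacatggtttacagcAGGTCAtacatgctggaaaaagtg
Cyp3a11, chr5:145879993-145880034, minus strand, 162 bases before: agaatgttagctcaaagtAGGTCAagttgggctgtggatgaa
Cyp2c29, chr19:39286913-39286954, plus strand, 154 bases before: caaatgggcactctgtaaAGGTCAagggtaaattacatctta
Slc10a1, chr12:80968143-80968184, minus strand, 87 bases before: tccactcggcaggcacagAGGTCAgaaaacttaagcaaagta

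None of the 34 receptor genes passed the test between diets, and their median absolute difference was close to that of all genes. A missed threshold does not show that the diets were alike. Of the 34 intervals 8 exclude 0. They belong to the 8 receptors with an unadjusted limma p under 0.05, which 17.0% of all genes also had. By limma with Benjamini-Hochberg adjustment over all genes, 0 of 34 receptors had an adjusted p under 0.05, against 3.49% of all genes (1.71% with the higher mean on the high-fat diet and 1.78% with the lower). At an unadjusted p under 0.05 there were 8 of 34 (23.5%), against 17.0% of all genes. Of these, 3 had the higher mean on the high-fat diet (8.94% of all genes) and 5 the lower (8.01%). The exact Wilcoxon test (3.13% of all genes), limma without moderation (3.28%), with a variance trend (3.40%), with array weights (3.80%) and with the replicate block (2.31%) also called 0, and 0 of the 29 receptors left without cross-hybridising probe sets passed (3.10%). Centring arrays on their medians moved the median of all genes to -1.29 SD and called 25 of 34 receptors lower, against 83.0% of all genes in either direction. Quantile normalisation called 1 of 33 (8.46%), and centring on the median of standardised values 3 of 34 (7.39%). Averaging a gene's probe sets called 1 of 34 (5.15%), and testing only genes at or above the median score 1 of 23 (8.30%). Quantile normalisation left 862 genes constant and gave others tied scores, so a sign or call after it can rest on some mice shifting by 1 level. The fits on standardised values and on averaged probe sets first divided the scores by their SD within diets. That made the SDs much alike, so limma's moderation can give smaller p-values there than on the unscaled scores. The median difference of the 34 was -0.20 SD and that of all genes 0.04 SD, and the median absolute difference was 0.42 SD for the receptors and 0.44 SD for all genes. Differences are given in units of the SD within diets, high-fat minus low-fat, because the deposited scores were compressed by an amount that differs between probe sets and are no log2 fold changes. For the same reason no receptor's level is compared with another's.

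**Figure D1:**
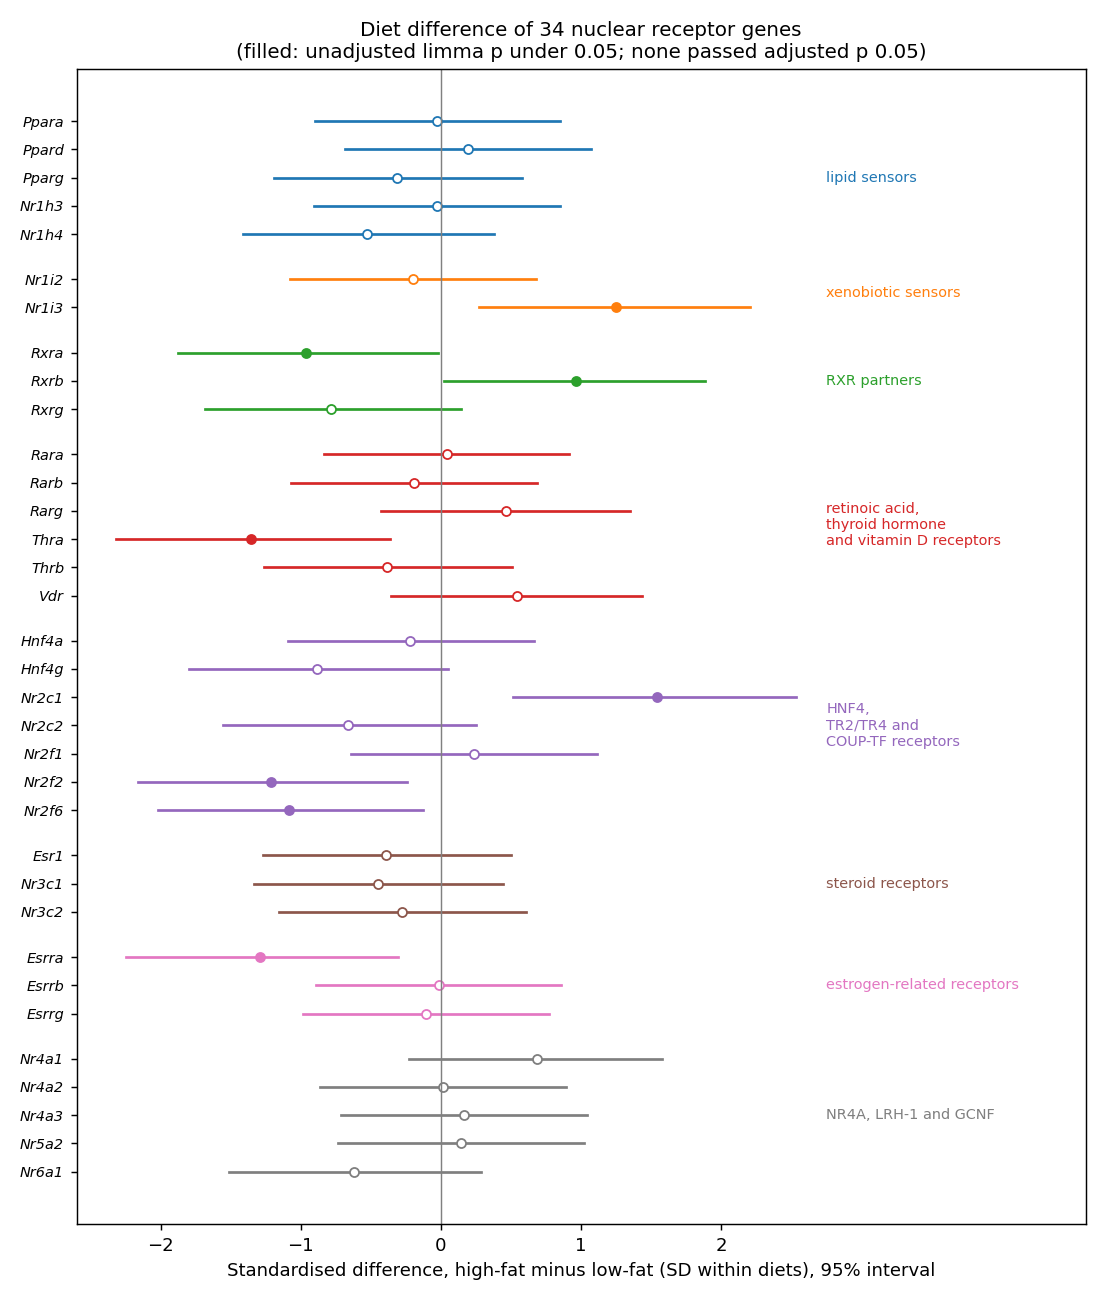
Standardised difference between diets (x axis, SD within diets, high-fat minus low-fat) for each of the 34 receptor genes, grouped by role, with 95% intervals from the noncentral t distribution (n = 10 per diet). Filled points have an unadjusted limma p under 0.05. The highest is Nr2c1 at 1.54 and the lowest Thra at -1.36, and 26 intervals include 0.

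The receptor nearest to the threshold was Nr2c1, which encodes the orphan receptor TR2, a repressor that binds direct repeats of the hexamer. Measured in SD from the low-fat mean, the low-fat mice ran from -1.13 through a median of -0.10 to 1.16, and the high-fat mice from -0.28 through 1.37 to 3.97. The diets overlapped, with 6 of 10 high-fat mice above every low-fat mouse and 3 low-fat mice below every high-fat mouse. The difference was 1.54 SD (95% interval 0.52 to 2.53, limma adjusted p = 0.0587), but -0.0203 after quantile normalisation and -0.75 after centring arrays on their medians. The high-fat mouse was higher in 86.0% of the mouse pairs. It passed by limma without low-fat replicate 4 (adjusted p = 0.0471), high-fat replicate 7 (0.0445) or high-fat replicate 9 (0.0273), and among genes at or above the median score (0.0391). With arrays centred on the median of standardised values its limma adjusted p was 0.0167, but there genes were scaled to a like SD first. Nr2c2, the closely related TR4, stood at -0.66 (-1.55 to 0.25).

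The COUP-TF genes Nr2f2 and Nr2f6 encode orphan receptors that compete with other receptors for the same DNA sites. For Nr2f2 the low-fat mice ran from -1.80 through 0.03 to 1.99 and the high-fat mice from -2.09 through -1.17 to -0.52. All 10 high-fat mice were below the low-fat median, but only 1 lay below every low-fat mouse (difference -1.21 SD, -2.16 to -0.24, adjusted p = 0.142). For Nr2f6 the low-fat mice ran from -1.70 through -0.08 to 1.61 and the high-fat mice from -2.45 through -0.90 to 0.26. There 8 of 10 high-fat mice were below the low-fat median (-1.09 SD, -2.02 to -0.13, limma adjusted p = 0.201, but 0.03 SD after quantile normalisation). Nr2f1, the third COUP-TF gene, stood at 0.24 (-0.65 to 1.11). Hnf4a was at -0.22 (-1.10 to 0.66), with the high-fat mice between -2.14 and 0.87 around a median of -0.05 and the low-fat mice between -1.60 and 1.53. For Hnf4a 1 high-fat mouse lay below all low-fat mice, and 3 low-fat mice lay above all high-fat mice. Hnf4g, its relative, was at -0.88 (-1.80 to 0.05, adjusted p = 0.336).

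Among receptors for thyroid hormone, retinoic acid and vitamin D, Thra had the lowest value of all 34. It encodes thyroid hormone receptor alpha, the form that is less abundant in hepatocytes than the beta form. Its low-fat mice ran from -1.53 through -0.06 to 1.64 and its high-fat mice from -2.31 through -1.21 to 0.23, with 9 of 10 high-fat mice below the low-fat median. The difference was -1.36 SD (-2.32 to -0.36) and the limma adjusted p 0.0962. With the mean of its probe sets, or with arrays centred on the median of standardised values, Thra passed by limma (adjusted p = 0.00908 and 0.028). Both settings scaled the scores to a like SD first. Thrb, the beta form, stood at -0.38 (-1.26 to 0.51). The retinoic acid receptor genes Rara (0.04, -0.84 to 0.92), Rarb (-0.20, -1.07 to 0.69) and Rarg (0.47, -0.43 to 1.35) had intervals on both sides of 0. So did Vdr, the vitamin D receptor gene (0.55, -0.36 to 1.43), although quantile normalisation turned its sign and called it (-1.60, limma adjusted p = 0.0354).

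The estrogen-related receptors control genes of mitochondrial energy supply and have no known natural ligand of the estrogen kind. In Esrra the low-fat mice ran from -1.65 through -0.06 to 1.66 and the high-fat mice from -3.03 through -1.20 to 0.20. Of the high-fat mice 9 of 10 were below the low-fat median and 3 were below every low-fat mouse (-1.29 SD, -2.25 to -0.31, limma adjusted p = 0.12). The limma adjusted p was 0.0397 with arrays centred on the median of standardised values, where genes were scaled to a like SD first. Esrrb stood at -0.02 (-0.89 to 0.86) and Esrrg at -0.11 (-0.98 to 0.77).

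Of the xenobiotic sensors, Nr1i3 encodes CAR, which induces Cyp2b10 and other drug-metabolising genes. Its low-fat mice ran from -1.74 through 0.18 to 1.52, and its high-fat mice from -1.16 through 1.47 to 2.29. High-fat replicate 3 was the lowest of its group, and 9 of 10 high-fat mice were above the low-fat median. The difference was 1.25 SD (0.27 to 2.20, higher in 85.0% of mouse pairs) and the limma adjusted p 0.13, or 1.84 SD and 0.027 without high-fat replicate 3, and the difference was -0.18 after quantile normalisation. Nr1i2, which encodes PXR, the main inducer of Cyp3a11, stood at -0.20 (-1.08 to 0.68), with high-fat mice from -2.55 to 1.59 around the low-fat range of -0.94 to 1.46.

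The RXR genes, which encode the common partner of most of the others, did not lie on one side of 0. In Rxra, the form that predominates in liver, the low-fat mice ran from -2.14 through 0.02 to 2.16 and the high-fat mice from -1.71 through -0.96 to 0.48, with 9 of 10 below the low-fat median (-0.96 SD, -1.88 to -0.02, limma adjusted p = 0.269). In Rxrb the low-fat mice ran from -1.77 through 0.06 to 2.14 and the high-fat mice from 0.17 through 0.86 to 1.87. All 10 high-fat mice were above the low-fat median, and none was above the highest low-fat mouse (0.97 SD, 0.02 to 1.88, adjusted p = 0.272, but -0.38 SD after quantile normalisation and -1.13 after centring arrays on their medians). Rxrg stood at -0.78 (-1.69 to 0.14). The difference between the RXR genes was not tested.

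The intervals of the lipid sensors all included 0. Ppara, the fasting receptor for fatty acids, had low-fat mice from -1.62 through -0.08 to 1.26 and high-fat mice from -1.92 through 0.12 to 2.02. The ranges covered each other almost entirely (-0.03 SD, -0.90 to 0.85). Nr1h3, which encodes LXR-alpha, was at -0.03 (-0.91 to 0.85), and Nr1h4, which encodes FXR, at -0.52 (-1.41 to 0.38), but at 0.53 after quantile normalisation. Pparg, a driver of fat storage, was at -0.31 (-1.19 to 0.58), and Ppard at 0.19 (-0.69 to 1.07), but at -0.73 after quantile normalisation and -1.19 after centring arrays on their medians. Together these intervals reach from -1.41 to 1.07 SD, so differences of that size remain possible.

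**Figure D2:**
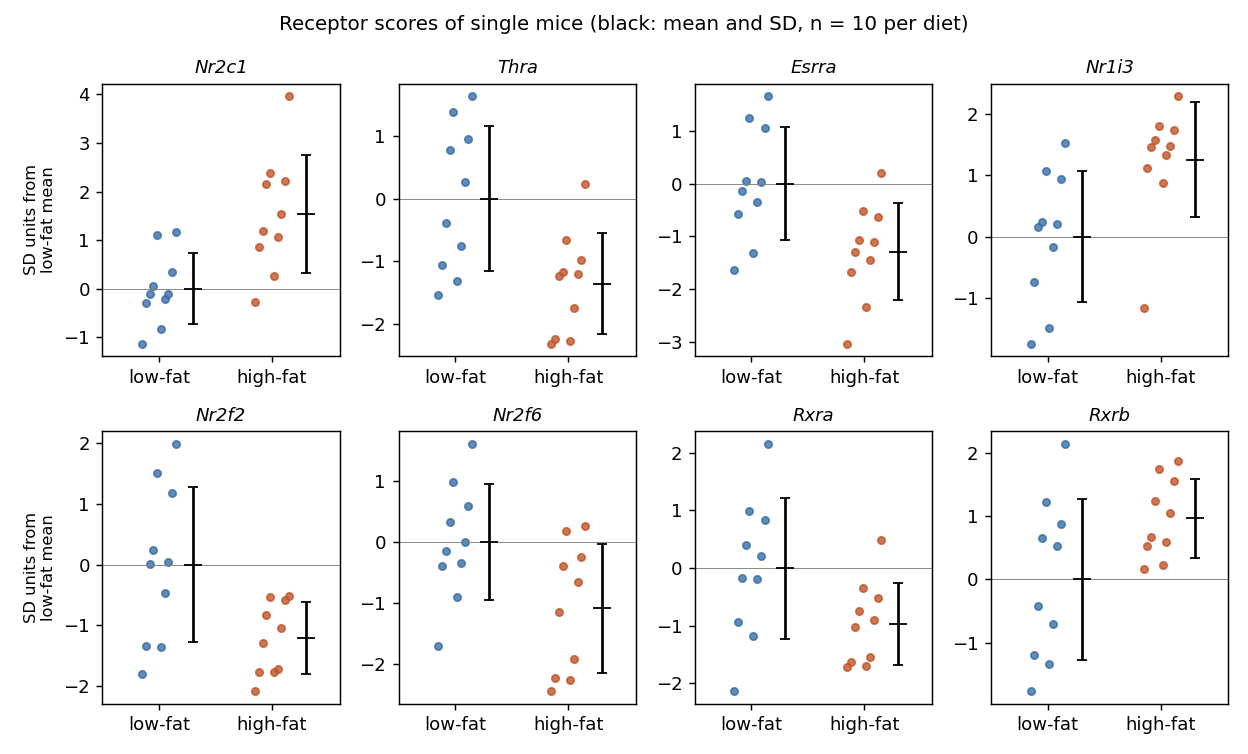
Scores of single mice for the 8 receptors with the smallest limma p, in SD units from the low-fat mean (y axis). Points are mice (10 per diet), and the black bar gives the mean and SD of each diet. The diets overlap in all 8 panels, and the lone low point of Nr1i3 on the high-fat diet at -1.16 is high-fat replicate 3.

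The remaining receptors also had intervals that included 0. Among steroid receptors, the glucocorticoid receptor gene Nr3c1 stood at -0.45 (-1.33 to 0.45), the mineralocorticoid receptor gene Nr3c2 at -0.28 (-1.16 to 0.61) and the estrogen receptor gene Esr1 at -0.39 (-1.27 to 0.50). Of the NR4A genes, which are quickly induced by signals such as glucagon, Nr4a1 stood at 0.69 (-0.23 to 1.58), Nr4a2 at 0.01 (-0.86 to 0.89) and Nr4a3 at 0.16 (-0.72 to 1.04). In Nr4a1 the high-fat mice spread from -0.61 to 3.64, while the low-fat mice stayed between -0.60 and 1.25. Nr5a2, which encodes LRH-1, a regulator of bile acid synthesis, stood at 0.14 (-0.74 to 1.02). The germ cell nuclear factor gene Nr6a1 stood at -0.62 (-1.51 to 0.29).

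Other probe sets of the same receptors were compared with the chosen ones. Of the 90 receptor probe sets 2 passed when all 45037 were tested together, against 2.32% of all probe sets, and 20 (22.2%) had an unadjusted limma p under 0.05, against 15.1%. The first was another probe set of Thra, with low-fat mice from -1.53 through -0.15 to 1.64 and high-fat mice from -3.21 through -2.12 to -0.88 (-2.23 SD, limma adjusted p = 0.011). The third probe set of Thra stood at -0.76, so all 3 were on the same side. The other was a probe set of Nr2c1, with low-fat mice from -1.76 through 0.19 to 1.22 and high-fat mice from -0.01 through 1.95 to 3.46 (1.81 SD, limma adjusted p = 0.0348). With the replicate number as a block 0 passed (1.19% of all probe sets), by the exact Wilcoxon test only that of Thra (1.75%), and both passed with a variance trend (2.23%), without moderation (2.01%) and with array weights (2.30%). Quantile normalisation called 6 (9.70%) and median centring 73, all lower (85.7% of all probe sets in either direction). The 5 probe sets of Nr2c1 ran from -0.69 to 1.81.

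Of the 22 receptors with several probe sets, 7 had all on one side of 0, and 33 of 56 further probe sets had the sign of the chosen one. Esrra (-1.29 and -1.03) and Nr2f6 (-1.09 and -1.07) had both on the same side. In Nr2f2 4 of 5 further probe sets were on the side of the chosen one. Hnf4a had all 4 below 0, and 1 of them stood at -1.26, further out than the chosen one, with the high-fat mice from -2.88 through -1.15 to -0.23 and the low-fat mice from -1.59 to 1.65. Nr2c2 ran from -0.66 to 1.32 and Hnf4g from -0.88 to 1.06, each crossing 0.

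**Figure D3:**
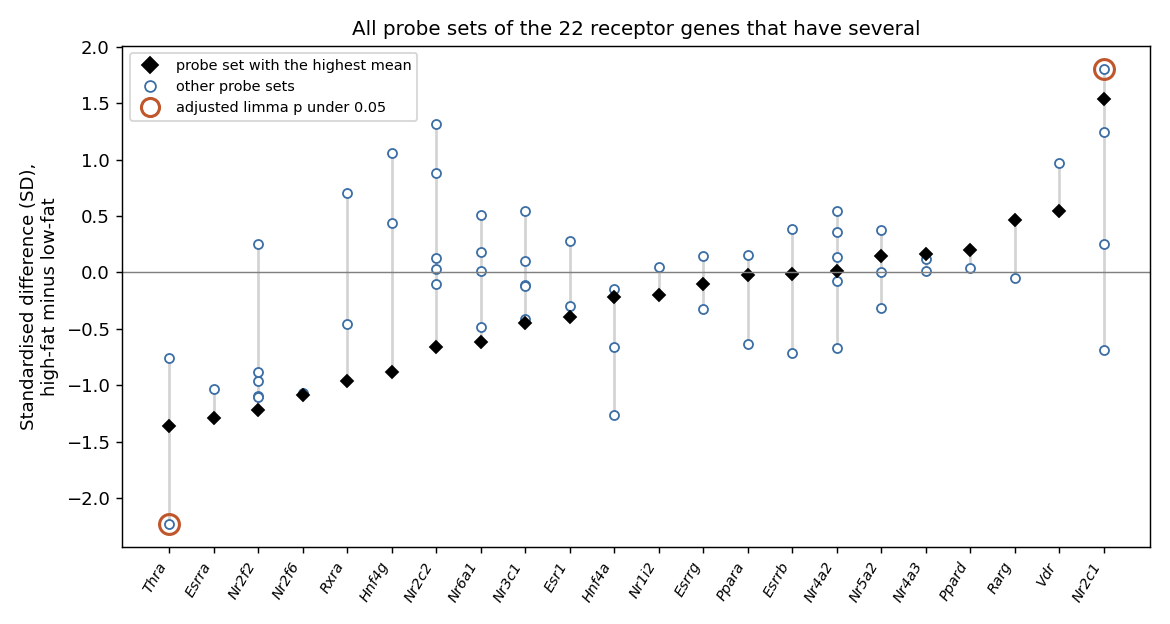
Standardised difference (y axis, SD within diets) of every probe set of the 22 receptor genes with several. Black diamonds are the probe sets with the highest mean, open circles the others, and rings mark an adjusted limma p under 0.05. Rings sit on 1 probe set of Thra (-2.23) and 1 of Nr2c1 (1.81).

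Probe sets of 1 receptor were also compared over the 20 mice, with each diet's mean removed. Of 122 such pairs in 22 genes, 18 correlated with an adjusted permutation p under 0.05, all with r above 0. The median r was 0.15 over these pairs, which used every probe set of the 22 genes. It was -0.02 over the 561 pairs of different receptors, which used only the chosen probe sets. The pairs shared arrays and mice. All 3 pairs of Ppara correlated (r = 0.75 to 0.80). The 2 probe sets of Nr1i2 had r = 0.94 and rho = 0.92 (permutation p = 1e-05 for both, the smallest these permutations can give; adjusted p = 0.00061 and 0.000813), and r = 0.90 without the 2 mice farthest from the median. The 2 of Nr2f6 had r = 0.72 and rho = 0.72 (permutation p = 0.00055 and 0.00077; adjusted p = 0.00447 and 0.00939), and r = 0.74 without 2 mice. The pairs among the 6 probe sets of Nr2f2 ranged from r = -0.20 to 0.92, and 6 of these pairs, among 4 probe sets, passed with r of at least 0.72. The 3 pairs of Rxra ran from -0.18 to -0.06 and those of Thra from 0.09 to 0.42, and none of these 6 pairs passed.

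Receptors act through coactivators, which open chromatin, and corepressors, which close it in the absence of ligand. Of 14 measured coactivators and 8 of 10 corepressors with a named probe set, 0 passed by limma, against 3.49% of all genes, and 2 of 14 and 2 of 8 had an unadjusted p under 0.05, against 17.0%. Their medians were 0.31 and -0.42 SD, that of all genes 0.04. The acetyltransferase genes Kat2b (-1.45, -2.43 to -0.44, adjusted p = 0.073) and Crebbp (1.33, 0.34 to 2.29, adjusted p = 0.104) came nearest. Kat2b passed by limma among genes at or above the median score (adjusted p = 0.0477). It also passed with arrays centred on the median of standardised values (0.0163), where genes were scaled to a like SD first. Crebbp passed without high-fat replicate 2 (adjusted p = 0.0243), but stood at -0.17 after quantile normalisation. Among corepressors Tbl1x stood at -1.07 (adjusted p = 0.205) and Lcor at 1.00 (adjusted p = 0.242). The fasting coactivator gene Ppargc1a stood at -0.15. Of 10 measured receptors outside the 35, 0 passed (3.49% of all genes). The nearest were the clock receptor genes Nr1d2 (1.02, limma adjusted p = 0.235) and Nr1d1 (-0.72, limma adjusted p = 0.435). The small heterodimer partner gene Nr0b2, an FXR target that blocks other receptors, stood at -0.14.

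Of 13 measured genes that make or remove receptor ligands, 1 rose (1.71% of all genes) and 1 fell (1.78%), with a median of 0.28 SD against 0.04 for all genes. Cyp7b1, which hydroxylates oxysterols, the LXR ligands, rose: low-fat mice ran from -1.95 through 0.56 to 1.45 and high-fat mice from 1.25 through 2.79 to 3.43, and 9 of 10 high-fat mice were above every low-fat mouse (2.56 SD, 1.33 to 3.74, limma adjusted p = 0.0028). Hsd11b1, which regenerates active glucocorticoid inside the cell, fell: low-fat mice ran from -1.48 through -0.03 to 2.04 and high-fat mice from -3.62 through -2.17 to -0.74 (-2.18 SD, -3.29 to -1.04, adjusted p = 0.00828). All 10 high-fat mice were below the low-fat median for Hsd11b1. Dio1, which activates thyroid hormone and is itself a target of its receptor, stood at 1.11 (0.15 to 2.04, adjusted p = 0.19), but at -1.10 after quantile normalisation. Hsd11b1 was not tested under that normalisation.

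Target genes were counted by receptor, and differences between these lists were not tested. Like the lists above, they were chosen with earlier results of these data known. Their counts beside the shares of all genes are therefore no test of a list. Of 9 LXR targets 2 fell, against 1.78% of all genes, and the median was -1.11 SD, against 0.04. Scd1, the desaturase gene, had all 10 high-fat mice below all low-fat mice (-6.33 SD, -8.54 to -4.09, limma adjusted p = 1.27e-07), and Pltp, which transfers phospholipids, had 9 of 10 below (-2.46, -3.63 to -1.26, adjusted p = 0.00363). The sterol exporter gene Abcg5 stood at -1.49 (limma adjusted p = 0.0653), passing without low-fat replicate 2 (0.0374) or high-fat replicate 2 (0.0328). Srebf1 stood at -1.19 (adjusted p = 0.155), while Abca1 stood at 0.89. With the replicate block Abca1 passed by limma (adjusted p = 0.0446), at 2.02 in units of the SD left after the block. The block leaves the score difference as it was, and only the SD it is divided by was smaller. Abcg5 also passed by limma among genes at or above the median score (0.0426) and with arrays centred on the median of standardised values (0.0129). In the fit on averaged probe sets its limma adjusted p was 0.023. Abcg5 has 1 probe set, so nothing was averaged and its difference stayed at -1.49. The last 2 fits scaled the scores to a like SD first. Of 9 CAR and PXR targets 3 fell, against 1.78% of all genes, and the median was -0.96. These were Cyp3a11 (high-fat mice from -7.44 to -3.20, low-fat mice from -1.06 to 0.59), Cyp2c29 (high-fat mice from -4.86 to -2.07, low-fat mice from -1.44 to 1.49) and Cyp3a13 (-2.22, adjusted p = 0.00736). The diets did not overlap for Cyp3a11 (-5.07, adjusted p = 2.1e-06) and Cyp2c29 (-3.26, adjusted p = 0.000398), against 0.275% of all genes. Cyp2b10, the classical CAR target, stood at 0.43. The hexamer shown above lies in front of Cyp3a11 and Cyp2c29. It was found in 3 of the 7 genes past the threshold that had a promoter entry, against 15.8% of all 27025 genes with an entry. These 7 were picked by their scores here, from lists of receptor targets and ligand enzymes, so this comparison is no test of the hexamer.

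In the other target lists 2 genes passed, both lower (1.78% of all genes). Me1, a thyroid hormone target that supplies NADPH, fell, with all 10 high-fat mice below all low-fat mice (-2.40 SD, -3.55 to -1.21, limma adjusted p = 0.00424), 1 of 6 such targets. Slc10a1, which takes up bile acids and is repressed through FXR, fell (-1.64, -2.65 to -0.60, adjusted p = 0.044), 1 of 8 FXR and LRH-1 targets, and all 10 high-fat mice were below the low-fat median. Its call was lost in 15 of 20 fits without 1 array, up to an adjusted p of 0.0765 without high-fat replicate 4. The Slc10a1 call was also lost after quantile normalisation (-0.67, limma adjusted p = 0.347), without moderation (0.0526) and by the exact Wilcoxon test (0.0697). It was lost with the replicate block too (limma adjusted p = 0.125, -1.44 in units of the SD left after the block). Abcb4, the FXR target that exports phospholipid into bile, stood at 0.94 (adjusted p = 0.279), but at -1.64 (limma adjusted p = 0.0284) after quantile normalisation and -0.17 after centring arrays on their medians. Me1 (-1.28) and Pltp (-1.23) did not pass when cross-hybridising probe sets were left out (adjusted p = 0.127 and 0.143). Of 9 measured PPAR-alpha targets, of 9 glucocorticoid receptor targets and of 8 ERR targets 0 passed, against 3.49% of all genes. In lists this short a count of 0 is near that share. For the first 2 of these lists 0 also had an unadjusted limma p under 0.05, against 17.0% of all genes. The nearest in them were Angptl4 (0.65), Acot1 (-0.64), G6pc (0.66), Mt2 (-0.42), Cox5a (-1.29) and Idh3a (0.36). Cox5a passed with averaged probe sets (-2.12, limma adjusted p = 0.0445) and with arrays centred on the median of standardised values (0.0411), both after scaling to a like SD. Angptl4 stood at -0.95 without cross-hybridising probe sets and at -0.21 with averaged ones. Of 6 PPAR-gamma targets 0 passed (3.49% of all genes), with Cd36 at -1.15 (limma adjusted p = 0.17, or 0.0438 with array weights) and Cidec at -0.34. Of 7 HNF4A targets 0 passed (3.49% of all genes). Its member Ttr stood at -3.12 SD (-4.43 to -1.76) with a limma adjusted p of 0.224 and an SD within diets of 5.02e-07. All 10 high-fat mice were below all low-fat mice for Ttr, which passed without moderation (adjusted p = 0.000942) and by the exact Wilcoxon test (0.00394). It also passed by limma with averaged probe sets (9.96e-06) and with arrays centred on the median of standardised values (8.52e-10). Those 2 fits scaled the scores to a like SD first, so their p-values are not comparable with the 0.000942 from Ttr's own SD. F9 stood at 0.95 (adjusted p = 0.276).

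**Figure D4:**
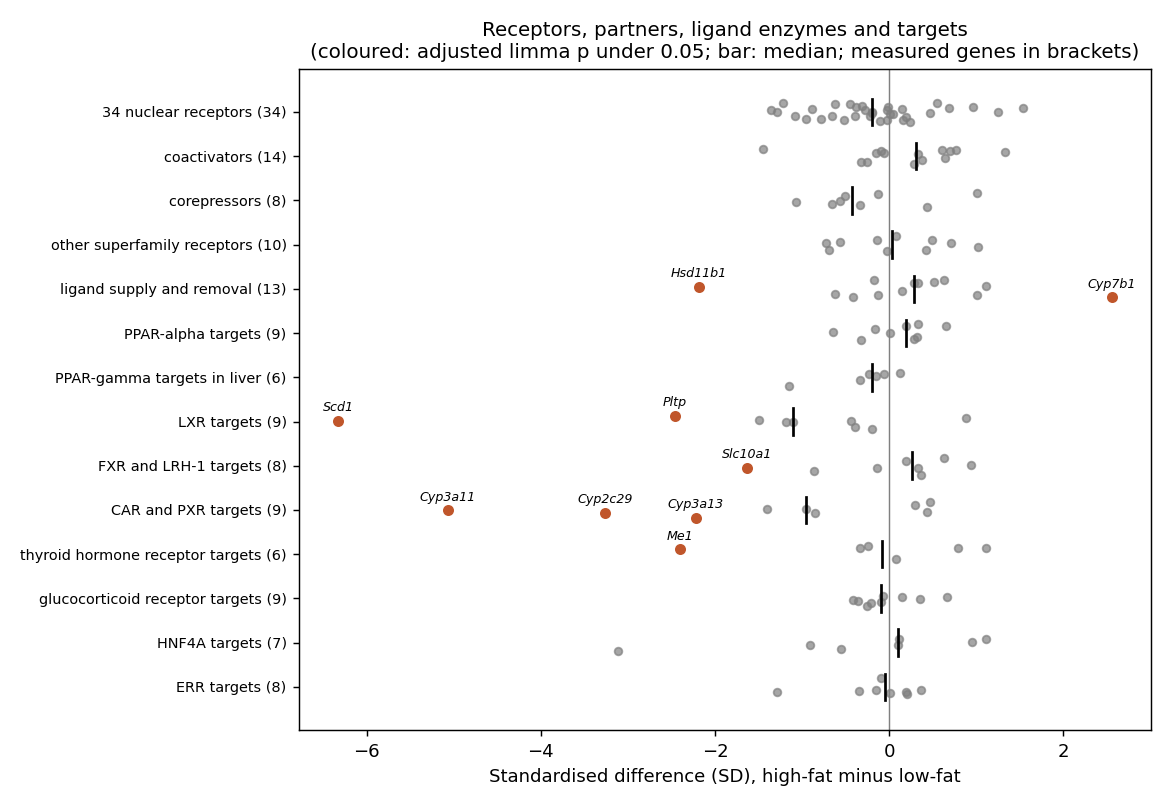
Standardised difference (x axis, SD within diets, high-fat minus low-fat) of each measured gene, in rows for the 34 receptors and for lists of coregulators, ligand enzymes and targets. Coloured genes passed an adjusted limma p of 0.05, and bars are medians. The receptors lie between -1.36 and 1.54, and the genes past the threshold run from Scd1 at -6.33 to Cyp7b1 at 2.56.

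Whether receptors vary from mouse to mouse with their partners or targets was examined in 16 pairs over 20 mice, with each diet's mean removed. By permutation within diets, 0 of 16 pairs had an adjusted p under 0.05 for Pearson's r, and 0 had an unadjusted p under 0.05. Rxra and its 8 partners had r between -0.33 (Vdr) and 0.19 (Ppara). The highest r was that of Nr1i2 and Cyp3a11 (r = 0.44, rho = 0.42, permutation p = 0.0853 and 0.0828, adjusted p = 0.65 and 0.663), with r = 0.45 within each diet and 0.28 without the 2 mice farthest from the median. Nr1i3 and Cyp2b10 had r = 0.35 and rho = 0.52 (permutation p = 0.122 and 0.0197, adjusted p = 0.65 and 0.316), and r = 0.36 without 2 mice. Nr3c1 and Fkbp5, a feedback target of the glucocorticoid receptor, had r = -0.47 and rho = -0.23 (permutation p = 0.0727 and 0.332, adjusted p = 0.65 and 0.952), with 0.41 in the low-fat and -0.75 in the high-fat mice, and r = -0.26 without the 2 mice farthest from the median. High-fat replicate 3 stood far above the rest of its group for Nr3c1. That difference between diets was not tested.

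**Figure D5:**
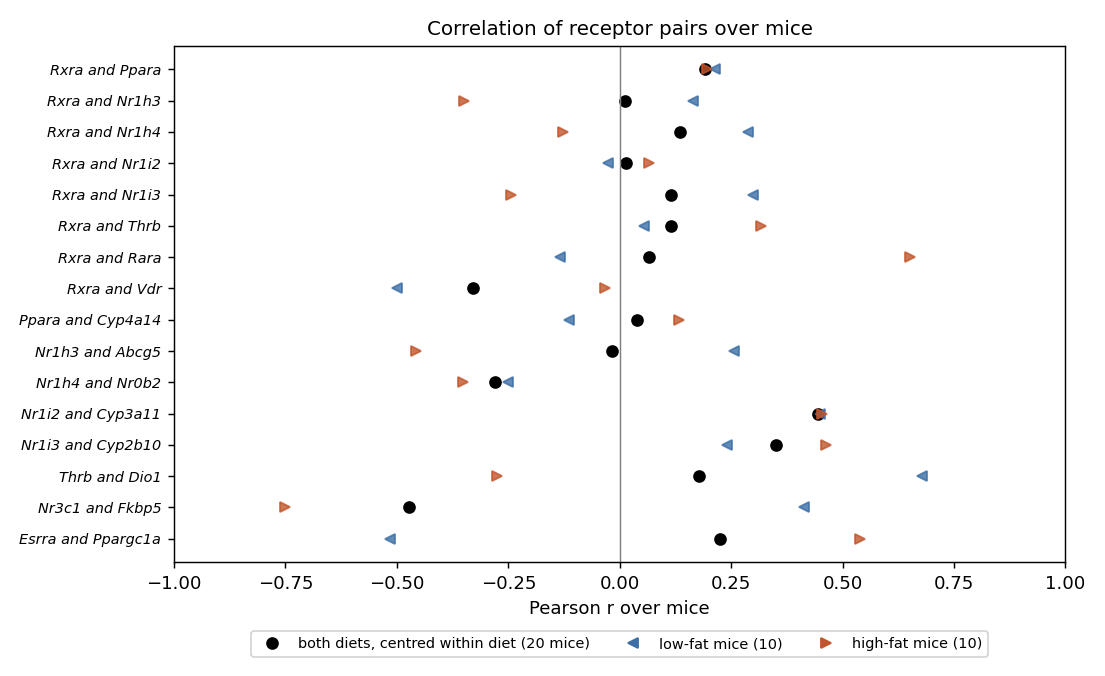
Pearson r over mice (x axis) for 16 pairs of a receptor with its partner, target or coregulator. Black circles use all 20 mice after removing each diet's mean, and triangles the 10 mice of each diet. No pair passed, and the pooled r runs from -0.47 to 0.44.

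Array medians ran from 6.56702 to 6.5672, with a high-fat mean above the low-fat mean by 7.33e-05, and 0 pairs of arrays held identical values. The 5 measured hepatocyte markers had low-fat mean scores from 13.6 to 14.8, above every array's median, and 0 passed, against 3.49% of all genes. Their differences went both ways, among them Ttr at -3.12, Serpina1b at 1.77 (0.70 to 2.80, limma adjusted p = 0.972) and Apoa1 at 1.35 (0.35 to 2.31, limma adjusted p = 0.719). The intervals rest on each gene's own SD, while limma moderates it with the variances of all genes. For Apoa1 its own SD within diets was 4.33e-07. A high adjusted p at so small an SD does not show that the diets were alike. Of the markers of other cells, Krt23 of bile duct cells (2.09, limma adjusted p = 0.0112) and Cela1 of pancreatic acinar cells (1.80, limma adjusted p = 0.0265) rose (1.71% of all genes). Of the others, 0 of 6 macrophage, 0 of 6 stellate, 0 of 6 endothelial, 0 of 5 lymphocyte and 0 of 4 adipocyte markers passed (3.49% of all genes). Over the 5 measured bile duct markers the mean score ran from 6.58402 to 6.58455 on the low-fat and from 6.58436 to 6.58549 on the high-fat diet. Over the 3 acinar markers it ran from 7.08511 to 7.08606 and from 7.08569 to 7.08684. These means of raw scores give most weight to markers with a large SD within diets. That SD was 0.00131 for Krt23, against 0.00013 for Epcam and 1.58e-05 for Krt19, and 0.00105 for Cela1, against 6.24e-06 for Ctrb1. In SD units 2 bile duct markers had the higher mean on the high-fat diet and 3 the lower (median -0.11). Of the acinar markers 2 were higher and 1 lower. The part of these cells in the receptor values was not tested.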

How the data were processed

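Livers of 20 mice, 10 per diet, were measured on Affymetrix arrays from biotin-labelled RNA, per the labels' protocols. The authors deposited 1 score per probe set and array. How they summarised and normalised the arrays was not given in the sources used here. A typical (median) probe set had an SD of 1.17e-05 over arrays. Depth has no counterpart here, and the number of arrays limits the precision. Of the probe sets, 34945 had 1 symbol and 932 several; 64 controls were left out, and 0 columns belonged to other samples.

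The diet comparison was fitted over 18193 genes by lmFit and eBayes (limma 3.58.1, R 4.3.3; two-sided, no covariate) and adjusted by Benjamini-Hochberg at 0.05. Correlations used 100000 permutations within diets. Fits were tested on simulated data. The members and lists were chosen with earlier results of these data known. The comparison of probe sets of 1 gene over mice was added after seeing the data. All receptors are named, with full values for the 8 with the smallest adjusted p. Of list genes, those past the threshold are named, and up to 2 with the smallest adjusted p in a list with fewer than 2. Abcg5, Cyp2b10, Ppargc1a, Nr0b2 and Fkbp5 are named as members of pairs, and Srebf1, Abca1, Krt23, Cela1, Serpina1b and Apoa1 were chosen after their values were seen. Replicate numbers did not pair the mice. Alternatives are in the closing section.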

Additional observations from a re-analysis of the deposited data

Results flagged for a closer look

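In 134 groups of 10 mice, over 67 genes, the mouse farthest from the rest was compared with the spread of its group, and 4 groups had a gap whose share of the range was above Dixon's 95% critical value. Chance gives about 1 in 20 such groups. For Nr1i3, high-fat replicate 3 lay below the others (gap over range 0.59). For Nr3c1, high-fat replicate 3 lay above the others (0.473). For Esr1, low-fat replicate 2 was low (0.473). For Nr1d1, low-fat replicate 8 was high (0.625).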

How the results depend on the processing

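The count of receptors past the threshold was 0 with cross-hybridising probe sets left out (29 receptors), a variance trend, no moderation, array weights, the replicate block and the exact Wilcoxon test. It was 1 after quantile normalisation (Vdr, lower; 8.46% of all genes), 25 after centring arrays on their medians (all lower; 83.0% of all genes), 3 after centring on the median of standardised values (Nr2c1 higher, Thra and Esrra lower; 7.39%), 1 with a gene's probe sets averaged (Thra; 5.15%) and 1 with only the genes at or above the median level (Nr2c1; 8.30%). These shares of all genes count either direction. The fits on standardised values and on averaged probe sets scaled the scores to a like SD before limma. Their counts therefore do not show the effect of centring or averaging alone. Without 1 array the count of receptors was 0 to 1 (2.74% to 3.96% of all genes): Nr2c1 when low-fat replicate 4 or high-fat replicates 7 or 9 were left out, and Nr1i3 when high-fat replicate 3 was. The list genes past the threshold were 9, and 60 and 14 under those 2 centrings, 9 with the replicate block, and 8 to 11 without 1 array. Of those 9 under the block 8 were shared, Slc10a1 being lost and Abca1 gained. Without moderation and by the exact Wilcoxon test 8 were shared, with Ttr gained in place of Slc10a1. Quantile normalisation kept 6 of the 9 and called 6 others, and Cyp3a11 and Hsd11b1 were not tested there. The 2 receptor probe sets became 6, 73, 0 and 1 after quantile normalisation, after median centring, with the replicate block and by the exact Wilcoxon test.
After quantile normalisation the sign turned for Abcb4 (-1.64), Crebbp (-0.17), Dio1 (-1.10), Hnf4g (0.47), Nr1h4 (0.53), Nr1i3 (-0.18), Nr2c1 (-0.0203), Nr2f1 (-0.61), Nr2f6 (0.034), Nr4a3 (-0.00649), Nr5a2 (-0.13), Ppara (0.20), Ppard (-0.73), Rara (-0.79), Rarg (-0.92), Rxrb (-0.38) and Vdr (-1.60). After centring arrays on their medians the sign turned for Abcb4 (-0.17), Angptl4 (-0.061), Cyp2b10 (-0.68), F9 (-0.91), Nr2c1 (-0.75), Nr2f1 (-1.36), Nr4a2 (-1.27), Nr4a3 (-1.31), Nr5a2 (-0.93), Ppard (-1.19), Rara (-1.27), Rarg (-1.14), Rxrb (-1.13), Vdr (-1.19). After centring on the median of standardised values the sign turned for Nr4a2 (-0.034), Rara (-0.0048). With a gene's probe sets averaged the sign turned for Angptl4 (-0.21), Fkbp5 (0.025), Hnf4g (0.32), Nr2c2 (0.71). Without cross-hybridising probe sets the sign turned for Angptl4 (-0.95). With array weights the sign turned for Nr1h3 (0.15), Nr4a2 (-0.054), Rara (-0.074), Rarb (0.017). Without 1 array the values crossed 0 for Esrrb (-0.26 to 0.17), Esrrg (-0.29 to 0.062), Fkbp5 (-0.21 to 0.26), Nr0b2 (-0.36 to 0.076), Nr1h3 (-0.24 to 0.16), Nr1i2 (-0.43 to 0.072), Nr4a2 (-0.32 to 0.20), Nr4a3 (-0.035 to 0.35), Nr5a2 (-0.028 to 0.37), Ppara (-0.29 to 0.20), Ppargc1a (-0.54 to 0.033), Rara (-0.13 to 0.26), Rarb (-0.35 to 0.034), none past the threshold. The correlation of Rxra and Nr1h3 was -0.028 after centring on the median of standardised values, and 0 of the 16 pairs passed there too. Median centring and quantile normalisation moved the median difference of all genes from 0.04 to -1.29 and -0.40 SD, and 862 genes were left constant by the latter and not tested. Abcb4, Dio1 and Slc10a1 took values there that arise when only 2 score levels remain. A turned sign or call after quantile normalisation can therefore rest on some mice shifting by 1 tied level. The cause of the other changes was not tested. Same-numbered mice of the 2 diets had a median correlation of 0.023 over all genes (-0.16 to 0.26, above 0.1 in 2 of 10 pairs), so the numbers were taken not to pair the mice. Under the replicate block 421 of all genes passed by limma, against 635, and Slc10a1 did not (adjusted p = 0.125, -1.44 in units of the SD left after the block). Signal over background cannot be told from the scores. All of these alternatives were planned.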
